A study of Arabidopsis thaliana with 6 samples.

Results

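Transcript levels of the MAP kinase genes ATMPK8 (AT1G18150) and ATMPK13 (AT1G07880) were examined in Arabidopsis seedlings over-expressing the rice homeobox gene OsHOX24. Genes were chosen by symbol among probe sets that read a single gene, as those whose RefSeq symbol begins with CPK, CDPK, CIPK, CBL, MPK, MKK, MAPKKK or SNRK2, with or without AT in front, followed by a digit, a point or a hyphen. Of 13356 genes with such a probe set, 2 met this rule, and both are MAP kinases of the MPK family. RefSeq lists 115 genes with symbols of this form, of which the other 113 were not analysed here. These include all those of calcium-dependent kinases (29 symbols beginning with CPK and 5 with CDPK), of CIPK kinases (21), of CBL calcium sensors (9), of MAP kinase kinases (9), of the kinases above them (13) and of SnRK2 kinases (9). Of the 20 genes with MPK symbols, 18 were not analysed. Whether probe sets with no name here read any of the 113 genes was not known. The results therefore describe ATMPK8 and ATMPK13 and say nothing of the other MAP kinases or the kinases above them. Nor do they cover the calcium-dependent, CIPK or SnRK2 kinases under these symbols.

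The arrays came from 3 samples of the 35S::OsHOX24 line HZIP1-2.3 and 3 samples of wild type (WT), all of ecotype Columbia. The transgenic line is 1 transformation event in which the viral CaMV 35S promoter drives the rice gene in most tissues. Whole seedlings of both genotypes were harvested when 10 days old from MS medium, after growth under 14 h of light and 10 h of darkness with no stress applied. The study's purpose in this experiment was to find how the transgene changes the transcriptome, and the array reads Arabidopsis genes, so the transgene itself was not measured here.

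A MAP kinase is the last enzyme of a cascade in which a MAP kinase kinase kinase phosphorylates a MAP kinase kinase, which in turn phosphorylates the MAP kinase on a threonine and a tyrosine. The activated MAP kinase then phosphorylates transcription factors and enzymes. In Arabidopsis these cascades act in responses to wounding, pathogens and drought, and also in cell division and the patterning of stomata. ATMPK8 is known for binding calmodulin, through which calcium can activate it beside its kinase MKK3, and for restraining the oxidative burst after wounding. ATMPK13 is known as a target of the kinase MKK6 and has been linked to lateral root formation. Cascades of this kind are switched by phosphorylation, which transcript levels do not show.

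Signals are MAS5 values of Affymetrix arrays on the log2 scale, in which a difference of 1 is 2-fold. Correlations between arrays over all 22746 tested probe sets were 0.937 to 0.947 within 35S::OsHOX24, 0.928 to 0.939 within WT and 0.929 to 0.955 between the genotypes, so arrays of one genotype were no closer to each other than to those of the other. RNA integrity was read from the GAPDH control as its 3′ signal minus its 5′ signal, which grows as 5′ ends are lost. This difference was 2.39 to 3.63 (log2) in 35S::OsHOX24 and 1.63 to 4.80 in WT. The same difference was 3.40 to 3.67 in 35S::OsHOX24 and 2.76 to 3.58 in WT for the ubiquitin control, with replicates 1 and 2 of WT below every transgenic array, and 6.01 to 6.57 in 35S::OsHOX24 and 5.37 to 6.84 in WT for the actin control. Of 18 tissue markers listed, 2 could be named on the array. RCA, the rubisco activase of green tissue, averaged 14.54 ± 0.19 in 35S::OsHOX24 and 14.46 ± 0.21 in WT (log2, SD, n = 3 each). EXPA7, an expansin of root hairs, averaged 4.94 ± 0.44 in 35S::OsHOX24 and 3.87 ± 1.40 in WT (log2, SD, n = 3 each), with overlapping values. These signals were low, between the 25.3th and the 32.1th percentile in the transgenic arrays and the 12.3th and the 32.3th in WT. Whether EXPA7 was read above background was not known.

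ATMPK8 had signals of 9.41, 8.53 and 9.11 (log2) in replicates 1, 2 and 3 of 35S::OsHOX24, and of 9.48, 8.63 and 8.16 in those of WT. The highest and the lowest of these 6 values were both WT, and the transgenic values lay between them. On the linear scale the mean signal was 533 ± 156 in 35S::OsHOX24 and 466 ± 222 in WT (SD, n = 3 each). The signal stood between the 66.0th and the 79.0th percentile of all probe sets in the transgenic arrays and between the 62.4th and the 79.4th in the WT arrays. ATMPK8 was thus read above the array median in all 6 arrays.

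**Figure D1:**
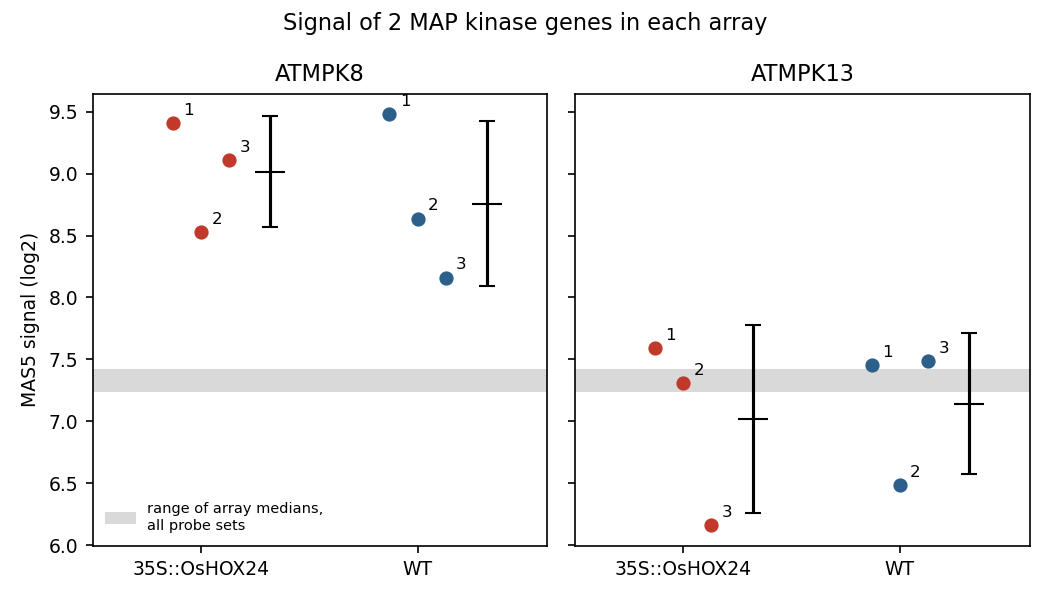
MAS5 signal (log2, vertical axis) of ATMPK8 and ATMPK13 in 3 arrays of 35S::OsHOX24 and 3 of WT. Numbers beside the points are replicate numbers, bars give the mean ± SD, and the grey band spans the array medians of all probe sets (7.24 to 7.42). The values of both genotypes overlap for both genes, and ATMPK8 lies above the band in every array.

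The mean signal of ATMPK8 was 9.01 ± 0.45 in 35S::OsHOX24 and 8.76 ± 0.67 in WT (log2, SD, n = 3 each). The difference between genotypes was 0.26 (log2, standard error 0.43), or 1.19-fold, with a 95% interval from -0.78 to 1.30. This interval includes a 2-fold rise, which these arrays could not tell from no difference, and does not reach a 2-fold fall. The difference was smaller than the range within either genotype, which was 0.88 between transgenic arrays and 1.32 between WT arrays. With limma, the unadjusted p was 0.569 and the adjusted p 1.0 over all 22746 probe sets. A 2-sided exact permutation test over the arrays gave p = 0.8, where the smallest p that 3 arrays against 3 allow is 0.1.

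ATMPK13 had signals of 7.59, 7.31 and 6.16 (log2) in replicates 1, 2 and 3 of 35S::OsHOX24, and of 7.46, 6.49 and 7.49 in those of WT. One array of each genotype was low, replicate 3 of 35S::OsHOX24 and replicate 2 of WT. The other 4 values lay close together and above the low arrays. On the linear scale the mean signal was 141 ± 62.4 in 35S::OsHOX24 and 148 ± 50.7 in WT (SD, n = 3 each). The percentile among all probe sets ran from 38.1 to 53.8 in the transgenic arrays and from 41.2 to 53.1 in the WT arrays, so ATMPK13 was read near the array median. Whether such a signal lies above background was not known, because detection calls were not used here.

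The mean signal of ATMPK13 was 7.02 ± 0.76 in 35S::OsHOX24 and 7.14 ± 0.57 in WT (log2, SD, n = 3 each). The difference between genotypes was -0.12 (log2, standard error 0.49), with a 95% interval from -1.31 to 1.06, which includes a 2-fold change in either direction. It was smaller than the range within either genotype, 1.43 between transgenic arrays and 0.9997 between WT arrays. With limma, the unadjusted p was 0.808 and the adjusted p 1.0. The 2-sided exact permutation test gave p = 0.7.

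Of the 2 genes, 0 were called with limma at the cut-offs the study used, a change of 2-fold or more together with an unadjusted p of at most 0.05. Of all probe sets, 2.53% were called, 0.914% as higher and 1.61% as lower in the transgenic line. With the methods' t-test the count was also 0, and the share over all probe sets was 1.28%. An unadjusted p under 0.05 was reached with limma by 0 of the 2 genes and by 3.45% of all probe sets, and no probe set on the array passed an adjusted p of 0.05. The genotypes did not overlap for 0 of the 2 genes and for 7.17% of all probe sets. Given the shares over all probe sets, 0 of 2 is no result about the family. The absolute difference was larger in 45.3% of all probe sets than in ATMPK8, and larger in 69.7% than in ATMPK13.

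Both genes varied more between arrays of one genotype than most probe sets of like signal. The SD within genotypes of ATMPK8 was 0.57 (log2), whereas the median was 0.34 in its signal group, number 3 when all probe sets are cut into 4 equal groups from low to high mean signal. In that group, 83.7% of probe sets had a lower SD. For ATMPK13 the SD was 0.67 and the median of its group, number 2 of the 4, was 0.48. There, 73.1% of probe sets had a lower SD. The genes shared some of their high arrays and not their lowest ones. Replicate 1 of 35S::OsHOX24 held the highest transgenic signal of both genes. Replicate 3 of WT held the lowest signal of ATMPK8 over all arrays and the highest of ATMPK13 within WT. Replicate 3 of 35S::OsHOX24 held the lowest signal of ATMPK13 over all arrays, while its signal of ATMPK8 lay between those of the other transgenic arrays.

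The low arrays of ATMPK13 were also those with the smallest 3′ minus 5′ difference of GAPDH, which was 2.39 (log2) in replicate 3 of 35S::OsHOX24 and 1.63 in replicate 2 of WT, against 3.25 to 4.80 in the other 4 arrays. These arrays of different genotype had the highest correlation of any pair, 0.955. The other controls did not order the arrays in this way. For ubiquitin, replicate 1 of WT, where ATMPK13 was high, had a difference of 2.78, close to the 2.76 of replicate 2 of WT and below the 3.42 of replicate 3 of 35S::OsHOX24. For actin, replicate 2 of WT had the smallest difference and replicate 3 of 35S::OsHOX24 the largest of the transgenic arrays. The part of RNA integrity in the signal of ATMPK13 was not tested. When both arrays were left out, which was decided after the values were seen, the difference of ATMPK13 was -0.023 (log2, standard error 0.26), and that of ATMPK8 was 0.15 (standard error 0.62). For ATMPK8 the array with the largest GAPDH difference, replicate 3 of WT at 4.80, had the lowest signal. Replicate 2 of 35S::OsHOX24, next at 3.63, had a signal of 8.53. Replicate 2 of WT, with the smallest GAPDH difference, had 8.63, and replicate 1 of WT, at 3.25, had the highest, 9.48. A link of ATMPK8 with RNA integrity was not tested either. Without replicate 3 of WT alone, the difference of ATMPK8 was -0.044.

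**Figure D2:**
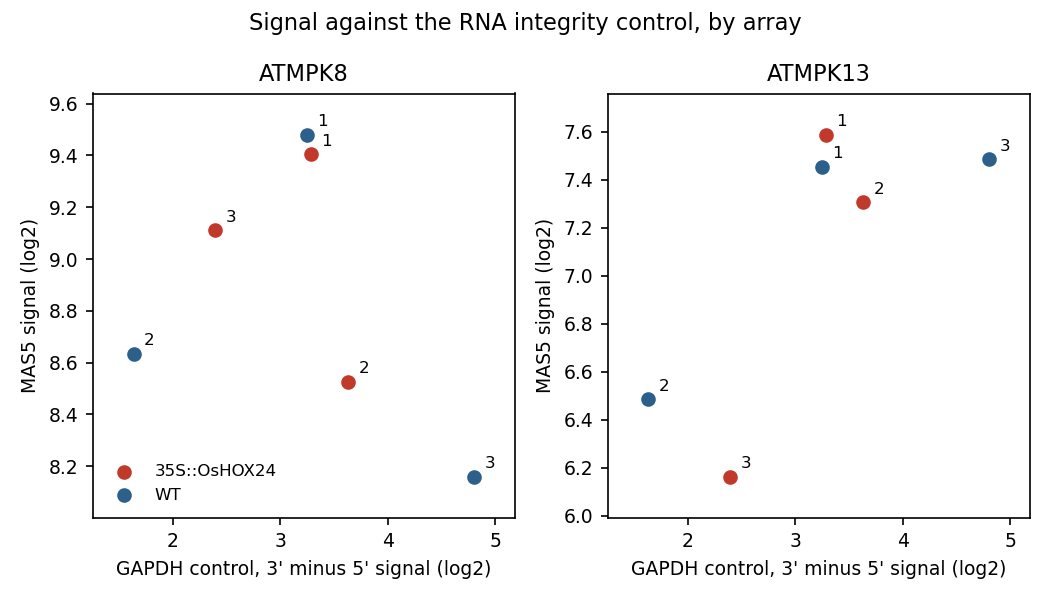
MAS5 signal (log2, vertical axis) of ATMPK8 and ATMPK13 against the 3′ minus 5′ signal of the GAPDH control (log2, horizontal axis), 1 point per array, coloured by genotype and labelled with the replicate number. The arrays with GAPDH differences of 1.63 and 2.39 hold the 2 lowest signals of ATMPK13.

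Neither difference had a stable direction when arrays were left out. Leaving out 1 array at a time, the difference of ATMPK8 ran from -0.044 without replicate 3 of WT to 0.62 without replicate 1 of WT. That of ATMPK13 ran from -0.45 without replicate 2 of WT to 0.31 without replicate 3 of 35S::OsHOX24. The lowest unadjusted p over these fits was 0.163 for ATMPK8 and 0.401 for ATMPK13, and the adjusted p was 1.0 in each of them.

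**Figure D3:**
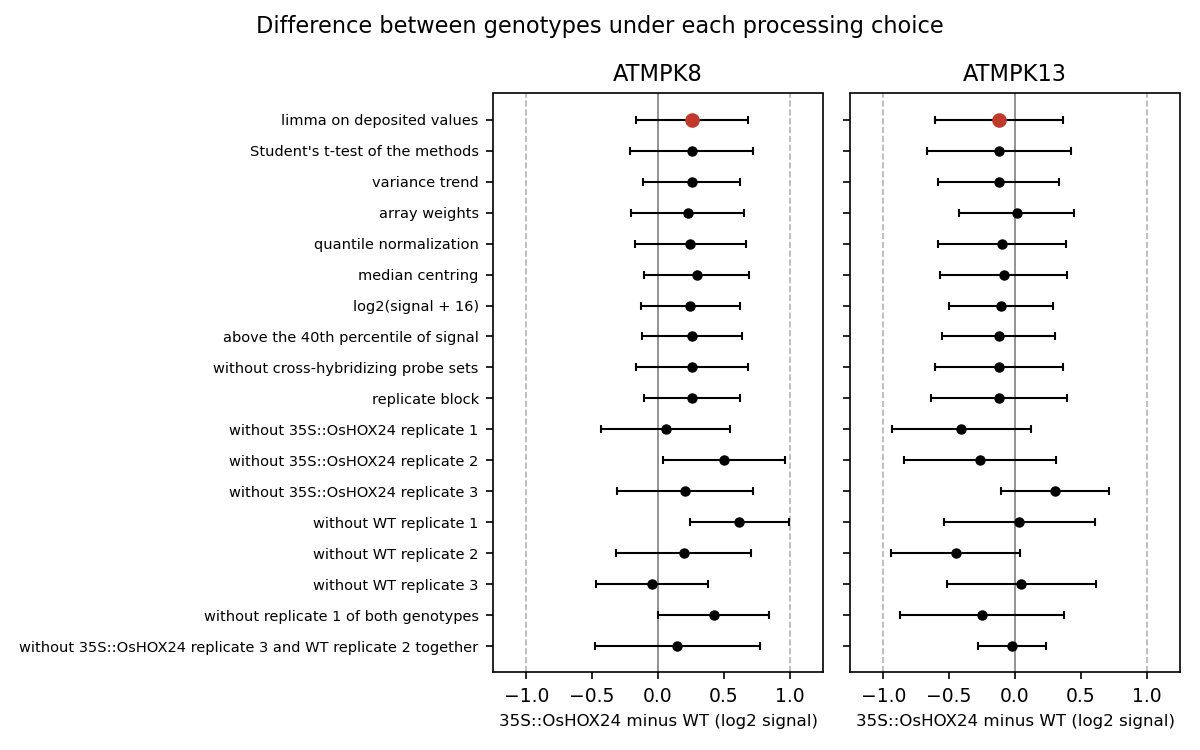
Difference in signal, 35S::OsHOX24 minus WT (log2, horizontal axis), of ATMPK8 and ATMPK13 with each way of processing the values or leaving out arrays. Points are fitted differences, bars are ± 1 standard error, the red point is limma on the deposited values (0.26 for ATMPK8 and -0.12 for ATMPK13), and dashed lines mark a 2-fold change. All points lie within the 2-fold lines.

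A list of 74 genes covered the pathways of all the families in the symbol rule, and not those of ATMPK8 and ATMPK13 alone. Among them were abscisic acid receptors, phosphatases, calmodulins, kinase substrates and further kinases. Of the 74 genes, 6 could be named among the single-gene probe sets, none of them a receptor, phosphatase or calmodulin. Whether probe sets with no name here read any of the others was not known. The values below are those of the 6 named genes. At the same cut-offs, 0 of the 6 were called higher and 0 lower with limma, 0 had an unadjusted p under 0.05, and 0 were called with the methods' t-test. Their median difference was 0.072 (log2), and the median over all probe sets was -0.030. SPCH (AT5G53210), the transcription factor SPEECHLESS that starts the stomatal lineage and is phosphorylated by MAP kinases, had signals of 6.85, 3.90 and 5.89 in 35S::OsHOX24 and of 6.55, 4.71 and 3.60 in WT (log2). Its difference of 0.60 had a standard error of 1.01, and the genotypes overlapped. The signal of SPCH was low, between the 19.2th and the 45.1th percentile in the transgenic arrays and the 15.7th and the 40.9th in WT. Whether it lay above background was not known. Of the probe sets in its signal group, 97.2% had a lower SD within genotypes. The other 5 loci were entered in the list as kinases or calcium sensors known by another symbol. The annotation used gives them no gene name, and their differences lay between -0.19 and 0.19 (log2).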

How the data were processed

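Total RNA of whole seedlings was hybridised to Affymetrix GeneChip arrays, 3 of 35S::OsHOX24 and 3 of WT, with genotypes taken from the sample labels and the line name from the paper, which calls them independent biological replicates. The authors computed signals with MAS5 and deposited them as 1 table of log2 values. Version and settings of MAS5 are not given in the sources used here. Their 2% trimmed mean on the linear scale was 500.05 to 500.06 in each array, so each array had been scaled. From these log2 values, 22746 probe sets were compared in R 4.3.3 with limma 3.58.1 (eBayes after lmFit, without trend or covariates) after leaving out 64 control probe sets, with Benjamini-Hochberg adjustment and no filter on low signals. Zero values numbered 163 to 511 per array and none was in ATMPK8 or ATMPK13. The number of arrays limits the precision.

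Probe sets were named through a platform table updated with RefSeq (assembly TAIR10.1), which matched 13436 of 13513 single-gene probe sets. A further 503 probe sets read several genes, and 8730 have no name here. ATMPK8 and ATMPK13 had 1 probe set each, so the alternative of another probe set gave no value, and medians by family were not given. No coordinates or sequences are printed, as no genome of the array's build was used here. The genes named were those of the symbol rule, with the highest and lowest difference of each family and any past the thresholds; of the related genes, SPCH was named after its values were seen. Members and lists were chosen with earlier results of these data known. The scripts were tested on simulated data. Alternatives changed the test (the methods' t-test, array weights, a variance trend, a replicate block), the scaling (median centring or quantile normalization), the treatment of low signals (16 added to each signal before log2, or a filter at the 40th percentile), the probe sets (none marked as cross-hybridizing) or the arrays (leaving out each in turn, both replicates 1, or the pair with the smallest GAPDH difference).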

Additional observations from a re-analysis of the deposited data

How the results depend on the processing

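Under every alternative, 0 of the 2 MAP kinase genes were called, and 0 of those of the 6 related genes that were tested. The filter at the 40th percentile removed SPCH before the fit, so SPCH was not tested there. The difference of ATMPK8 was 0.15 to 0.42 (log2) over the alternatives other than leaving out 1 array, where it ran from -0.044 to 0.62. That of ATMPK13 was -0.25 to 0.014, the positive value being that with array weights, and without 1 array it ran from -0.45 to 0.31. It was above 0 without replicate 3 of 35S::OsHOX24 (0.31), replicate 1 of WT (0.033) or replicate 3 of WT (0.049). That of SPCH ran from -0.080 to 1.42 without 1 array, and was below 0 without replicate 1 of 35S::OsHOX24 (-0.056) or replicate 3 of WT (-0.080). The cause was not tested. Over all probe sets, 575 were past the thresholds with limma, 292 with the methods' t-test, 114 with log2(signal + 16), 57 above the 40th percentile of signal, where fewer were tested, and 875 without replicate 3 of 35S::OsHOX24 and replicate 2 of WT together. Without 1 array the count was 615 to 751. With the replicate number as a block it was 678, and the differences of ATMPK8 and ATMPK13 stayed at 0.26 and -0.12 with standard errors of 0.36 and 0.51. The labels do not say whether same-numbered arrays were handled as pairs. Deviations from the group means correlated at 0.11, -0.20 and -0.18 between same-numbered arrays, and at -0.12 to 0.29 between arrays of other numbers. Pairing was not tested. After quantile normalization 264 of the 567 probe sets past the thresholds were higher in 35S::OsHOX24, and 208 of 575 without it.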
